A study of Rattus norvegicus with 156 samples.

Results

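Vip, Npy, Gal and Vgf encode 4 secreted peptides or peptide precursors of neurons, and were followed through every tissue of a rat model of neuropathic pain. All probe sets annotated to 1 of these symbols on the 3 rat U34 arrays (A, B and C) were taken. There were 5 of them, 2 for Vip (1 on array A and 1 on array C) and 1 each for Npy, Gal and Vgf on array A, and array B held none. The 4 genes stand among 10969 genes with a probe set of a single symbol. For Vip the probe set of array C, whose mean level was the higher, gives the values below unless array A is named.

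In the spinal nerve ligation model (SNL) the L5 and L6 spinal nerves are tied, and the sensory ganglia of L4 on the same side keep an intact nerve. The 5 treatments were naive rats given vehicle, naive rats given gabapentin (GPN), sham-operated rats given vehicle, SNL rats given vehicle and SNL rats given GPN. Sham surgery laid the spinal nerves bare and left them untied, and naive rats had no surgery, so their ipsilateral side is a label. GPN, a drug used against neuropathic pain, was injected at 100 mg/kg on each of 7 days in saline at 2 ml/kg, and tissue was taken 19 to 21 days after surgery. SNL rats were included only if the ipsilateral paw had become sensitive to touch. Strain, sex and age are not given in the labels. Each of the 52 samples was 1 RNA pool of 4 to 6 rats, taken from dorsal root ganglia (DRG) of L4, L5 or L6, sciatic nerve or a divided spinal cord of 1 side, or from whole brain. The naive L6 and naive GPN L5 DRG and the SNL nerve of the contralateral side were not analysed here. With 1 pool per treatment and compartment, the 2 ligated pools were compared with the 3 (in places 2) unligated ones, and p-values measure only the spread between these pools.

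The 4 peptides share a route and differ in family. Vasoactive intestinal peptide (VIP), neuropeptide Y (NPY), galanin and VGF are made as precursors, cut by prohormone convertases in the regulated secretory pathway, and released from dense-core vesicles. VIP acts on receptors that raise cyclic AMP, while NPY and galanin act on receptors that mostly lower it. In intact sensory ganglia VIP and NPY are scarce and galanin is limited to a small part of the neurons, and all of them are textbook examples of peptides that sensory neurons begin to make after their axon is cut. VGF, a granin-like protein whose gene responds to neurotrophins, is present in intact neurons and gives rise to several bioactive peptides.

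RefSeq's promoter sequences (build GRCr8) were found for all 4 genes. Because the 4 genes were followed as a group, the 150 bases before each transcript start are printed 5′ to 3′ on the gene's strand. They lie at chr1:44470330-44470479 (plus strand) for Vip, chr4:80211961-80212110 (plus) for Npy, chr1:210084573-210084722 (minus) for Gal and chr12:25277021-25277170 (minus) for Vgf. For Vip and Vgf the window falls inside the span RefSeq gives the gene. Capitals mark TGACG, the half-site of the cyclic AMP response element (CRE), with the full CRE TGACGTCA where it occurs, and the TATA box TATAAA.
Vip: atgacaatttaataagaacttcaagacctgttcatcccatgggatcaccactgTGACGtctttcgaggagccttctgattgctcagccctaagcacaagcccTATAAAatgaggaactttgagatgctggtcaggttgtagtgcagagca
Npy: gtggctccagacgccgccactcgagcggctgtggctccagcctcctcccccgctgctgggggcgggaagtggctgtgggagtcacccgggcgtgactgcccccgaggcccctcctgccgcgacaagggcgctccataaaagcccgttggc
Gal: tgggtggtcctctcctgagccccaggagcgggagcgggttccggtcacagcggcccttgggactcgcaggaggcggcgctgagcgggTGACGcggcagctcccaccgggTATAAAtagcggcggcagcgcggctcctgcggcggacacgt
Vgf: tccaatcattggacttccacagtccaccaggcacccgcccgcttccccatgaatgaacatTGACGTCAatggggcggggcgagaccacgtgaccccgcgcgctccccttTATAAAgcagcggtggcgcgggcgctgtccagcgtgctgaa

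A TGACG match lay at -97 in Vip, -63 in Gal and -90 in Vgf, counted from the transcript start, and the 250 bases searched upstream of Npy held none on either strand. Of 33469 RefSeq promoters, 18.2% held TGACG on 1 of the strands in a window of the same length. The full CRE was found in Vgf alone of the 4, at -90 where it contains the half-site on both strands, and in 1.59% of all promoters. TATAAA on the gene's strand was present in Vip at -48, in Gal at -41 and in Vgf at -41, with 2 more Vip matches at -165 and -175, and in 8.06% of all promoters. CACGTG, an E-box, occurred in Vgf at -65 and in 5.59% of all promoters, and TGANTCA, the AP-1 site, in none of the 4 and in 6.34%. These are letter matches only.

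The ganglia carried sensory neuron transcripts, and some RNA measures moved with the groups. The summed signal of the 13 sensory neuron markers on the arrays (of 14 listed) was 20586 to 24506 in unligated ipsilateral DRG and 576 to 754 in unligated ipsilateral nerve, where Scn10a, Scn11a and Avil were never above the filter on low signals. Signals are MAS5 intensities, quantile normalized within a compartment unless stated otherwise. The ratio of the 3′ to the 5′ probe set of Gapdh, a measure of RNA integrity, was 3.16 in the sham L4 contralateral DRG, which stood apart from the other DRG pools, and reached 7.38 in nerve. In the ipsilateral DRG it was 1.01 to 1.16 in ligated and 1.13 to 1.49 in unligated pools. Array C medians before normalization were 53.3 and 51.8 in the ligated L4 ipsilateral pools against 18 to 25.7 in the unligated ones, and array A medians overlapped there.

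**Figure D1:**
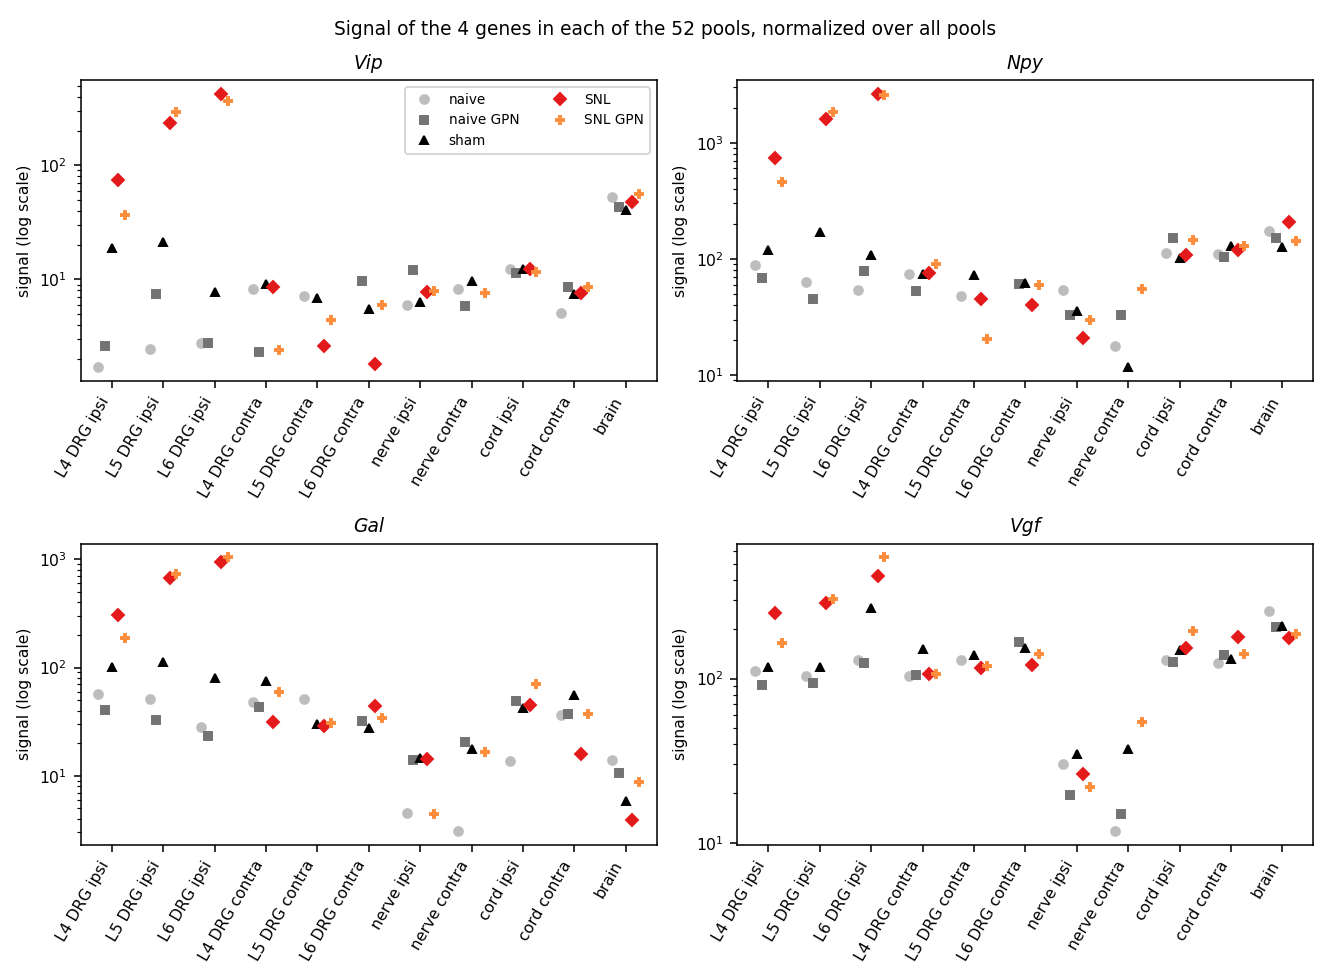
Signal of Vip, Npy, Gal and Vgf (log axis, MAS5 intensity normalized over all 52 pools) in 11 compartments, with 1 point per pool and a marker for each treatment. The red and orange ligated pools stand above the others in ipsilateral L4, L5 and L6 DRG, up to 2630 for Npy in the L6 DRG, while in the other compartments the ligated pools show no common separation of that size.

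In the ganglia of the tied nerves, all 4 genes were higher in both ligated pools than in any unligated pool. These rises are the reason the genes were followed, so the L5 and L6 changes are described with no test. The share of all probe sets split in this way is not given. In the L5 DRG, Npy stood at 74.4 in the naive, 52.8 in the naive GPN and 206 in the sham pool, against 1843 in the SNL and 2173 in the SNL GPN pool. Its log2 change was 4.33 (SE 0.47, 2 against 3 pools), a 20.1-fold difference on the log2 scale with its pseudocount of 5.8. Npy, best known as a peptide of sympathetic neurons, was more than an order of magnitude apart between the groups.

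Vip in the L5 DRG read 2.58, 8.22 and 24.6 in the naive, naive GPN and sham pools and 285 and 359 in the SNL and SNL GPN pools. The change was 4.37 (SE 0.46), and the probe set of array A gave 3.40 (SE 0.31), from 7.94 ± 4.69 (SD, n = 3) to 133 ± 1.69 (n = 2). The naive levels of Vip lay below or near the pseudocount of 6.2, which sets the size of its fold, while the ligated levels were far above it. Gal stood at 59.98, 38.4 and 133 in the unligated pools, in the same order, and at 809 and 874 in the ligated ones (log2 change 3.52, SE 0.41). Vgf had 123, 112 and 141 against 350 and 367, a change of 1.48 (SE 0.13) or 2.79-fold. Vgf thus began from a level that was measurable without injury and had the smallest change of the 4.

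In the L6 DRG, too, Vgf had the smallest change. The place of Vip among the others depended on the probe set. Vip was 2.29, 2.3 and 6.6 in the naive, naive GPN and sham pools and 398 and 350.3 in the ligated ones, a log2 change of 5.28 (SE 0.24), with 4.02 (SE 0.25) from array A. Npy went from 54.2, 77.5 and 107 to 2559 and 2497 (4.94, SE 0.26). Gal read 28.4, 23.2 and 79.6 without ligation and 956 and 1062 with it (4.53, SE 0.42). Vgf was 129, 122 and 268 in the unligated pools and 426 and 550.4 in the ligated ones (1.54, SE 0.33). Its sham pool lay between the other unligated pools and the ligated ones. On the log2 scale it was 1.02 and 1.10 above the naive and naive GPN pools. It was 0.65 and 1.02 below the SNL and SNL GPN pools.

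Over all probe sets, 6.75% of 16746 passed as higher and 8.85% as lower in the L5 DRG, and 4.35% and 4.18% of 16901 in the L6 DRG (adjusted p below 0.05, limma). Under the deposited scaling 15.2% of the calls were higher in L5 in place of 43.3% (24.6% under median scaling), and 27.9% in L6 in place of 51.0%, while the 4 genes kept their direction under each scaling, pseudocount, filter and left-out pool tried.

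Whether the 2 injured levels differed was tested on the L6 minus L5 difference of the ligation change. That difference is made of the 2 rises for which the genes were chosen, but the choice did not fix its sign. Vip was 1.09 (SE 0.35, adjusted p = 0.526) and Gal 1.05 (SE 0.19, adjusted p = 0.335) log2 units larger in L6. For Npy the difference was 0.59 (95% interval -0.23 to 1.41) and for Vgf 0.07 (-0.57 to 0.70). None of the 4 passed, against 0.0112% of 17832 probe sets. An unadjusted p below 0.05 in limma was found for 2 of 4 (Vip and Gal) and for 1479 of the 17832. Vip entered this test through its ligated pools, as it was above the filter in 1 of 3 unligated L5 and 0 of 3 unligated L6 pools.

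**Figure D2:**
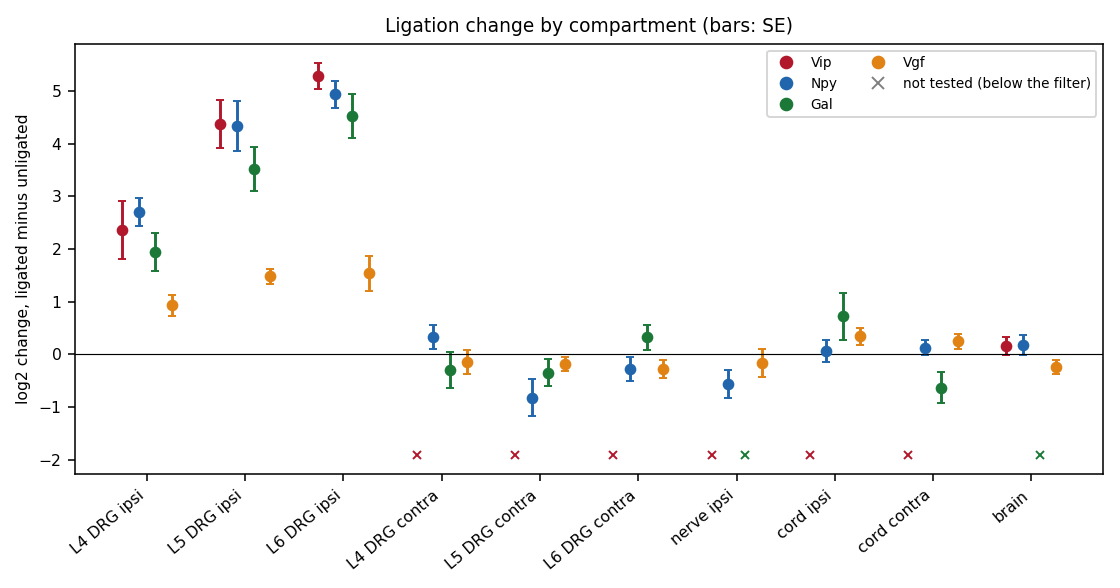
Log2 change with ligation (ligated minus unligated pools, points with bars of 1 SE) for the 4 genes in 10 compartments, crosses at the bottom marking genes below the filter. Npy changed by 2.70 in L4, 4.33 in L5 and 4.94 in L6 ipsilateral DRG, Vgf by 0.93, 1.48 and 1.54, and all changes elsewhere lay between -0.82 and 0.72.

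The spared L4 ganglion answered a different question, whether the peptides also move where the nerve of the level was not tied. In the L4 DRG of the operated side the estimates of all 4 genes were above 0, and Npy alone passed the test. Npy read 89.7, 68.4 and 124 in the naive, naive GPN and sham pools and 793 and 494 in the SNL and SNL GPN pools. Its log2 change was 2.70 (SE 0.27, adjusted p = 0.0467), or 6.51-fold. It was 1 of the 7 probe sets of 16762 that passed in this compartment (0.0418%), and the other 6 were lower in the ligated pools. The Npy call was lost without a filter (adjusted p = 0.153) and without the naive, the naive GPN or the sham pool (adjusted p = 0.113, 0.303 and 0.187), where the change stayed between 2.51 and 2.90.

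Gal in the L4 DRG stood at 57.1, 39.3 and 104 without ligation and at 330.3 and 198 with it (log2 change 1.95, SE 0.36, adjusted p = 0.0871). Vip was 2.26, 3.4 and 23.4 against 87.7 and 44.2 (2.36, SE 0.55, adjusted p = 0.129), and 1.62 on array A (SE 0.48, adjusted p = 0.196). It was above the filter in 2 of 2 ligated and 0 of 3 unligated pools, so it entered the test only through the group where it is high. Vgf had 115, 93.0 and 121 against 265 and 171 (0.93, SE 0.20, adjusted p = 0.116). The SNL pool was above the SNL GPN pool for each of the 4. Under the deposited scaling, where 2926 probe sets passed and 98.4% of them were higher, Gal changed by 1.86 (adjusted p = 0.00109). Vip then had a change of 3.09, and the array C medians moved with ligation in these pools.

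The L4 changes were smaller than those of the injured levels. The log2 change in L5 exceeded that in L4 by 1.88 (SE 0.40) for Vip, 1.67 (SE 0.36) for Npy, 1.61 (SE 0.26) for Gal and 0.57 (SE 0.22) for Vgf, given with no test. In L6 the excess over L4 was 2.97 (SE 0.40), 2.29 (SE 0.30), 2.66 (SE 0.30) and 0.63 (SE 0.37), in the same order. Leaving out the SNL or the SNL GPN pools moved the Vgf excess to 0.91 or 0.24 in L5 and to 1.11 or 0.14 in L6, and the deposited scaling moved that of Vip in L5 to 1.05.

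Atf3, a transcription factor gene that axon injury switches on, was the gene most like Vip, Npy and Gal over the DRG, and in L4 it read 51.0, 48.3 and 77.7 against 227 and 120. Its change there was 1.43 (SE 0.29, adjusted p = 0.0999), with 2.78 (SE 0.27, adjusted p = 0.00169) in L5 and 3.53 (SE 0.18, adjusted p = 2.04e-04) in L6. The summed signal of 9 macrophage markers was 1964 in the SNL and 1221 in the SNL GPN L4 pool against 800.0 to 1098, and that of the sensory neuron markers 20507 and 23512 against 23035 to 24060. The largest macrophage members were Cd74 (573 and 274 against 107 to 208) and Lyz2 (879 and 562 against 342 to 437). Cd68 (125 and 111 against 80.9 to 92.8) was also higher in both ligated pools, while Aif1, Csf1r and Fcer1g overlapped between the groups. Ptprc (9.44 and 29.3 against 23.9 to 34.7), Cd14 (39.5 and 36.1 against 34.3 to 47.3) and Laptm5 (63.3 and 13.4 against 41.7 to 65.0) did not rise. The part of Atf3 and of these markers in the L4 result was not tested.

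The same peptides were set against the untouched side. In the contralateral DRG of the 3 levels no test of a member passed, with 9 tests, adjusted p from 0.614 to 0.884 and 0 unadjusted p below 0.05 in limma. Over all probe sets 0% passed in L4, 0.00612% in L5 and 0.0729% in L6. Vip was below the filter in every contralateral DRG pool. Npy in the contralateral L5 DRG was 67.5 and 98.7 in the naive and sham pools and 63.7 and 29.7 in the SNL and SNL GPN pools, a log2 change of -0.82 (SE 0.36, adjusted p = 0.614). The single GPN pool was the lowest there, and GPN and ligation are unbalanced in that comparison. The largest positive estimate was Npy in L4, 0.33 (SE 0.23), from 71.6, 49.9 and 71.5 to 73.8 and 89.0.

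Between the sides, Npy was 35.3-fold higher on the ipsilateral side of the L5 DRG in the SNL pool and 91.0-fold in the SNL GPN pool, and 1.31-fold in the naive pool, as ratios of signals normalized over all pools. In L6 the ratios of Npy were 65.3 and 43.1 in the SNL and SNL GPN pools against 1.27 in the naive GPN pool. Gal had ratios of 23.0 and 23.6 in L5 and 21.4 and 30.6 in L6. Vgf stayed between 2.49 and 3.91 in those 4 ligated comparisons, and its ratio in the unoperated pools was 0.79 in L5 (naive) and 0.74 in L6 (naive GPN). In L4 the ligation change of the ipsilateral side exceeded that of the contralateral side by 2.41 (SE 0.31, adjusted p = 0.725) for Npy, 2.25 (SE 0.44, adjusted p = 0.971) for Gal, 2.44 (SE 0.61, adjusted p = 0.971) for Vip and 1.08 (SE 0.27, adjusted p = 0.971) for Vgf. No member passed, with 4 of 4 at an unadjusted p below 0.05 (Vip having entered through its ligated pools), and neither did any other probe set (0% of 17891). An unadjusted p below 0.05 in limma was found for 784 of the 17891.

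**Figure D3:**
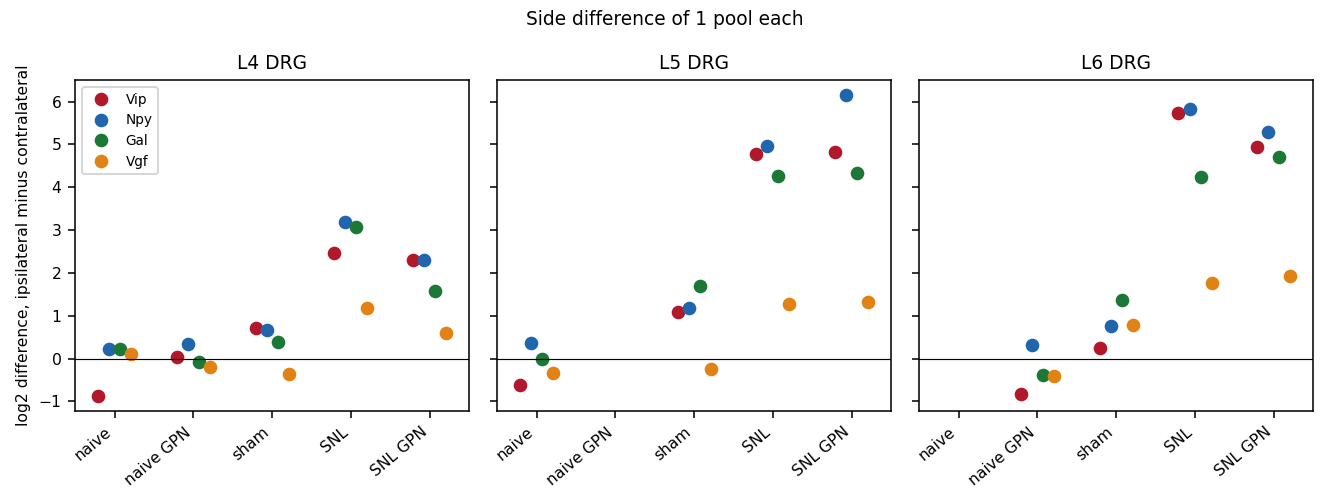
Log2 difference between the ipsilateral and contralateral DRG of 1 treatment, 1 point per gene, in L4, L5 and L6; pools missing on 1 side leave a gap. Both ligated pools lie above 0 for every gene, at 6.15 for Npy in the L5 SNL GPN pools, and the sham pools lie between them and the naive pools for Npy and Gal.

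Sham surgery had its own pattern. In the ipsilateral L4, L5 and L6 DRG the sham pool was the highest of the 3 unligated pools for all 4 genes, in 12 of 12 cases. Among 15790 probe sets kept at all 3 levels, 6.49% had the sham pool highest at all of them. The sham L6 pool had the lowest array medians of its 3 (20.5 on A, 8.1 on B and 14.5 on C) and a Gapdh ratio of 1.49. In L5 the sham pool had 206 for Npy against 74.4 and 52.8 in the naive pools, and 133 for Gal against 59.98 and 38.4. On the sham rats' own contralateral side, normalized over all pools, L5 Npy was 71.9 against 172 ipsilaterally, Gal 30.1 against 111, and Vip 6.86 against 21.4, while Vgf was 139 against 118. In L6 the corresponding values were 61.6 against 109 for Npy, 27.5 against 80.4 for Gal, 5.53 against 7.78 for Vip and 153 against 271 for Vgf. In L4 they were 73.7 against 120 for Npy, 75.8 against 101 for Gal, 9.09 against 18.7 for Vip and 151 against 117 for Vgf. The contralateral L4 sham pool, with a Gapdh ratio of 3.16, was itself highest of its 3 for 3 of 4 genes, against 42.4% of the kept probe sets. Ipsilateral Atf3 also read highest in the sham pool of the 3, at 102 against 65.4 and 46.8 in L5. The summed macrophage markers were highest in the sham pool of the 3 at each ipsilateral level as well, at 1098 in L4, 1440 in L5 and 1034 in L6 against 676 to 897 in the naive and naive GPN pools. Of their members, Ptprc (23.9) and Cd14 (34.3) were lowest of the 3 in the sham L4 pool. Each of these values is 1 pool, so sham surgery has no test, and the part of the macrophage markers was not tested.

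Away from the ganglia the 4 genes did not pass. In the ipsilateral sciatic nerve, a mid-thigh piece, Npy read 37.2, 21.5 and 23.7 in the naive, naive GPN and sham pools and 13.3 and 19.5 in the ligated ones, a log2 change of -0.57 (SE 0.27, adjusted p = 0.302). Vgf was 19.6, 12.4 and 22.7 against 17.0 and 13.9 (-0.15, SE 0.27, adjusted p = 0.808). Vip and Gal were below the filter there. Skeletal muscle markers summed to 684 and 6446 in the ligated ipsilateral nerve pools against 7373 to 15251, and fat cell markers to 791 and 1162 against 1645 to 2871. The part of muscle and fat in the nerve values was not tested. In the contralateral nerve the single ligated pool (SNL GPN) read 47.3 for Npy against 14.4, 27.9 and 9.35, and 46.6 for Vgf against 9.54, 12.0 and 31.4, above the naive, naive GPN and sham pools in both cases and with no test. Over all probe sets 4.85% of 16925 passed in the nerve, among them Atf3, which went from 106 ± 35.3 to 855 ± 11.4 (log2 change 2.98, SE 0.26, adjusted p = 0.00254). Under the deposited scaling 70.6% of the nerve calls were higher in place of 46.0%.

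In the spinal cord, where sensory axons and local neurons both carry these peptides, 0% of the probe sets passed on either side. Ipsilateral Gal read 14.9, 52.1 and 45.1 in the unligated pools and 47.9 and 73.1 in the ligated ones (0.72, SE 0.44, adjusted p = 1). On the contralateral side it read 33.0, 33.5 and 49.8 against 14.4 and 34.0 (-0.63, SE 0.30, adjusted p = 0.944). The ipsilateral estimate was 0.27 without the naive pool, and the contralateral one was -0.14 without the SNL and -1.13 without the SNL GPN pool. The difference between the sides was 1.36 (SE 0.41, adjusted p = 0.899), and 0% of 17676 probe sets passed that test. Vgf had 131, 127 and 152 against 154 and 198 ipsilaterally (0.35, SE 0.16, adjusted p = 1) and 109, 121 and 116 against 156 and 123 contralaterally (0.25, SE 0.14, adjusted p = 0.944). On the contralateral side the Vgf change was -0.57 under the deposited scaling. Npy stood between 89.7 and 151 over the 10 cord pools, with changes of 0.07 and 0.12.

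In whole brain 0% of the probe sets passed. Vip was 53.8, 44.5 and 41.9 against 49.2 and 56.9 (0.17, SE 0.17), Npy 163, 142 and 118 against 189 and 133 (0.18, SE 0.19), and Vgf 229, 187 and 190.0 against 166 and 174 (-0.24, SE 0.14), each with an adjusted p of 1.00. Of these, Vgf alone had an estimate below 0. Gal was below the filter in brain. Over nerve, cord, brain and contralateral DRG together 20 tests were made, 0 passed and 0 had an unadjusted p below 0.05 in limma.

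Without ligation Vip, Npy and Vgf had their highest mean in brain and Gal in DRG, compared over the naive, naive GPN and sham pools of each tissue after normalizing all 52 pools together. In these bulk samples a smaller share of cells that make a peptide and less RNA per cell cannot be told apart. Vip was highest in brain, 45.6 ± 6.13 (SD, n = 3), followed by spinal cord at 12.0 ± 0.57, L5 DRG at 10.4 ± 9.85, nerve at 8.15 ± 3.47, L4 DRG at 7.66 ± 9.59 and L6 DRG at 4.45 ± 2.88. Brain exceeded L5 DRG by 1.80 log2 units (SE 0.41, adjusted p = 0.0026) and cord by 1.5 (SE 0.41, adjusted p = 0.018), and array A gave 1.07 (SE 0.35, adjusted p = 0.0259) and 1.28 (SE 0.35, adjusted p = 0.0163). Vip was above the filter in all 3 brain pools, in 1 of the L5 DRG pools and in none of the other tissues, so it entered these tests through brain, where it is high. Cord and nerve did not pass against L5 DRG (0.30 and -0.07), and the other neighbours in this order were not tested.

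Vgf was also highest in brain, 225 ± 28.2, with L6 DRG at 175 ± 82.7, cord at 136 ± 12.8, L4 DRG at 106 ± 13.7, L5 DRG at 105 ± 12.1 and nerve at 28 ± 7.74. Brain was above L5 DRG by 1.06 (SE 0.23, adjusted p = 0.00199) and nerve below it by 1.73 (SE 0.23, adjusted p = 1.15e-05). Brain minus cord was 0.70 (SE 0.23, adjusted p = 0.0522), which did not pass.

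Npy ran from brain (150.4 ± 24.1) and cord (121 ± 25.2) through L5, L4 and L6 DRG (93.2 ± 68.7, 91.7 ± 26.2 and 80.5 ± 27.3) to nerve (41.0 ± 11.6). Brain minus L5 DRG was 0.86 (SE 0.35, adjusted p = 0.075) and nerve minus L5 DRG -0.89 (SE 0.35, adjusted p = 0.0542). Without the sham pools, whose L5 DRG held the most Npy, brain exceeded L5 DRG by 1.51 (adjusted p = 0.00218) and cord did by 1.20 (adjusted p = 0.0105).

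Gal was highest in the L4 and L5 DRG (66.0 ± 31.3 and 65.1 ± 41.1), then L6 DRG (43.9 ± 31.6), cord (34.8 ± 18.6), nerve (11.1 ± 5.68) and brain (10.2 ± 4.12). It was lower than L5 DRG by 2.03 log2 units in brain (change of -2.03, SE 0.48, adjusted p = 0.00362) and by 1.98 in nerve (-1.98, SE 0.48, adjusted p = 0.00322), and was below the filter in every pool of both. Gal thus entered these tests through the ganglia and cord, where it is higher, and the pseudocount of 5.8 bears on the size of both changes. Cord did not pass against L5 DRG (-0.78, SE 0.48, adjusted p = 0.268). Between ganglia, L5 minus L4 ranged from -0.16 to 0.31 and L6 minus L4 from -0.62 to 0.61, and no member passed, with 0% and 0.00514% of 19455 probe sets called.

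Against L5 DRG, 10.8% of 19455 probe sets passed as higher and 13.4% as lower in cord, 13.8% and 15.9% in brain, and 19.4% and 18.8% in nerve, and brain against cord gave 7.62% and 7.69%. Under the deposited scaling the share of higher calls among all calls was 6.92% in place of 50.8% in nerve, 23.8% in place of 46.4% in brain and 31.5% in place of 44.7% in cord, where median scaling gave 29.9%. Under it the Vgf excess in brain was 0.66 (adjusted p = 0.101), and the Vip excess of brain over cord 1.11 (adjusted p = 0.182). Left-out pools ended the brain calls against L5 DRG for Vip (without naive, adjusted p = 0.0815, and without naive GPN, 0.0515), Gal (without sham, 0.0553) and Vgf (without naive, 0.0595). The nerve calls of Gal, which was below the filter in nerve, and of Vgf held without each of these pools. The Vip call of brain over cord ended without the naive or the naive GPN pool (adjusted p = 0.101 and 0.157) and with a pseudocount of 1 (0.0809), and Vgf passed there without the sham pools (0.82, adjusted p = 0.0226).

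GPN was the drug arm, and no sham-operated rats were given it. Its estimates set the naive GPN pool against the naive and sham pools, so drug and sham surgery are partly mixed in them. With ligation held, 26 tests of the 4 genes over 8 compartments gave 0 that passed in limma and 4 with an unadjusted p below 0.05, and no probe set passed in 7 compartments (0% each), with 0.00603% in the contralateral cord. Probe sets with an unadjusted p below 0.05 in limma ranged from 208 of 16774 (contralateral L4 DRG) to 828 of 16586 (contralateral cord). In the ipsilateral L4 DRG each estimate was below 0. Npy was -0.62 (SE 0.17), Gal -0.81 (SE 0.25), Vip -0.80 (SE 0.52) and Vgf -0.45 (SE 0.15), all with an adjusted p of 0.999, and 3 of them had an unadjusted p below 0.05 (0.00854 for Npy, 0.0127 for Gal and 0.0193 for Vgf). An unadjusted p below 0.05 in limma was found there for 461 of 16762 probe sets. Without the sham pool the L4 estimates were -0.52 for Npy, -0.59 for Gal and -0.34 for Vip. The SNL GPN pool was below the SNL pool for 4 of 4 genes there, as it was for 47.1% of the kept probe sets. The same 2 pools differed in the summed macrophage markers (1964 in SNL and 1221 in SNL GPN), in skeletal muscle markers (4255 and 801) and in Atf3 (227 and 120). Of the macrophage markers, Ptprc went the other way (9.44 and 29.3). The part of these in the drug estimates was not tested.

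In the injured ganglia the drug estimates of Vip, Npy and Gal in L5 had wide intervals. They were 0.03 for Vip (95% interval -1.21 to 1.28), -0.56 for Npy (-1.72 to 0.61) and -0.59 for Gal (-1.55 to 0.37). Vgf in L5 had -0.10 (-0.44 to 0.25). There 0 of 4 genes were lower in the SNL GPN than in the SNL pool, against 48.0% of the kept probe sets. In L6 the estimates were -0.25 for Vip (-0.83 to 0.34), -0.01 for Npy (-0.68 to 0.67), -0.45 for Gal (-1.46 to 0.57) and -0.18 for Vgf (-1.03 to 0.67). At that level 2 of 4 genes and 46.7% of the kept probe sets were lower in SNL GPN. The fourth test with an unadjusted p below 0.05 was Npy in the ipsilateral cord, 0.43 higher with GPN (SE 0.16, adjusted p = 1).

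The genes around the 4 peptides were read by list. The lists were written from textbook roles with earlier results of these data known, and their counts are descriptions beside those of all genes. Over all genes tested the median log2 change was -0.01 in L5 and 0.01 in L6, with 6.79% risen and 9.41% fallen in L5 and 4.74% and 4.56% in L6. Of 5 granins tested, the acidic proteins that fill dense-core vesicles, 4 fell and none rose in both L5 and L6 DRG, with medians of -1.06 and -1.33. Scg2, the precursor of secretoneurin, fell from 306 ± 48.3 to 136 ± 15.0 in L5 (log2 change -1.13, SE 0.16, adjusted p = 0.00552) and from 461 ± 40.9 to 47.7 ± 0.96 in L6 (-3.12, SE 0.16, adjusted p = 2.04e-04). Chgb changed by -1.29 and -1.33, Scg3 by -1.04 and -1.36 and Scg5, a chaperone of a prohormone convertase, by -1.06 and -0.83. Pcsk1n was the granin-like gene that did not pass, at -0.07 and -0.50. VGF, which shares the granins' vesicles, thus moved opposite to 4 of them in the same pools. In L6, 1 granin (Scg2) still passed under the deposited scaling and 2 without the SNL pool.

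Of the enzymes that cut and finish peptide precursors, 1 of 9 fell in L5 and 1 of 10 in L6, with none risen. In L5 it was the convertase Pcsk6 (-1.26, SE 0.17, adjusted p = 0.00496), which also fell in the nerve (-1.56, SE 0.19, adjusted p = 0.00691), and in L6 Pcsk2, a convertase of neuroendocrine granules (-0.95, SE 0.19, adjusted p = 0.0239). Furin, which cuts precursors, Cpe, which removes basic end residues, and Pam, which amidates peptides, did not pass at either level. Of the receptors of the 3 peptides, 4 of 9 on the arrays were kept (Vipr1, Adcyap1r1, Npy1r and Galr2) and none passed at either level, with changes from -0.36 to 0.26. Among relatives of the same families, 3 of 7 on the arrays were kept and none passed. Adcyap1, the sister peptide of VIP known as PACAP, had -0.65 (SE 0.27, adjusted p = 0.15) in L5 and -1.84 (SE 0.56, adjusted p = 0.0876) in L6.

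Among other neuropeptides more fell than rose. In L5, 5 of 13 tested fell and none rose, with a median of -0.59, and in L6 7 of 19 fell and 2 rose, with a median of -0.25. Sst, somatostatin of small sensory neurons, went from 424 ± 23.2 to 70.5 ± 3.62 in L5 (-2.49, SE 0.12, adjusted p = 3.40e-04) and from 562 ± 46.8 to 8.17 ± 3.04 in L6 (-5.36, SE 0.19, adjusted p = 8.44e-05). Calca, which encodes the nociceptor peptide CGRP, fell by 0.65 in L5 and by 2.66 in L6, and Calcb by 1.16 and 1.70. Nmb, neuromedin B, fell by 1.30 in L5 (adjusted p = 0.00353) and by 1.79 in L6 (adjusted p = 0.00412). In L6 Nppa, a natriuretic peptide gene, changed by -1.92 (SE 0.26, adjusted p = 0.00539). The risen ones in L6 were Cck, cholecystokinin, with 41.8 ± 23.3 against 7.65 ± 2.59 (1.75, SE 0.37, adjusted p = 0.0278), and Cartpt with 31.3 ± 0.64 against 10.7 ± 3.94 (1.19, SE 0.28, adjusted p = 0.0413). Neither of the 2 rises passed without the naive, the SNL or the SNL GPN pool, Cck not without the naive GPN pool and Cartpt not without the sham pool. Under the deposited scaling neither passed, and 2 genes (Calca and Sst) passed as fallen. In L6, 4 genes passed as fallen without the SNL pool.

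The fall of peptides of intact sensory neurons stood beside a fall of the neuron markers as a whole. The summed signal of the 13 sensory neuron markers was 13691 and 15414 in the ligated L5 pools against 24320 to 24506, and 8867 and 10824 in the ligated L6 pools against 20586 to 22508. The 4 peptides rose in those same pools. The part of the neuron share in the falls was not tested.

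**Figure D4:**
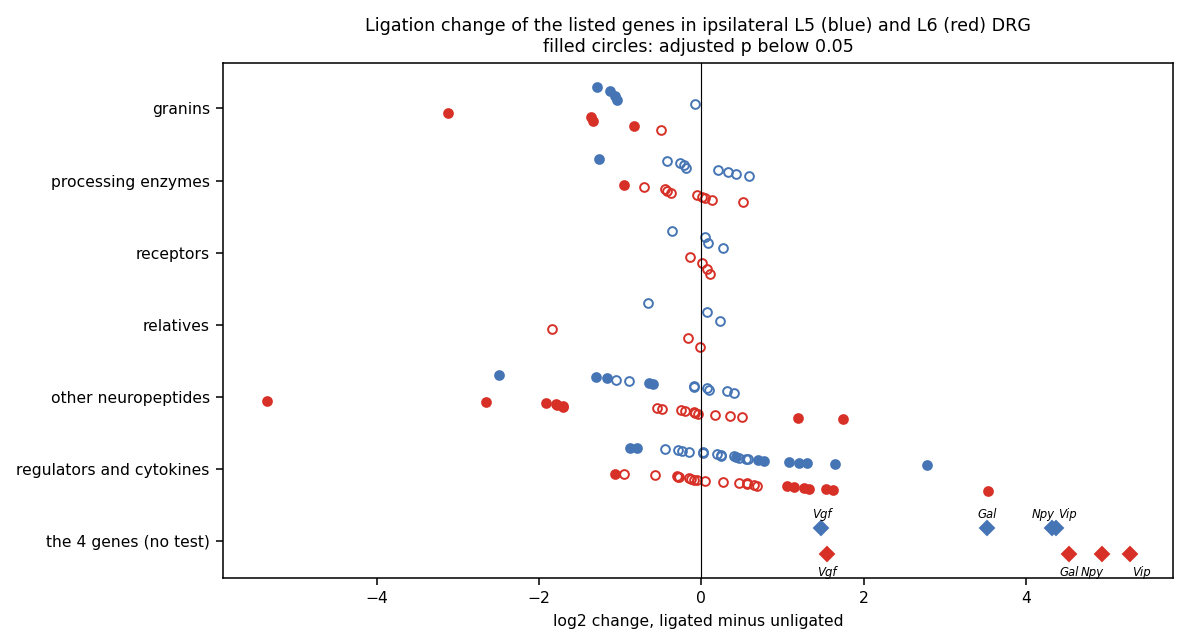
Log2 change with ligation of each tested gene of the 6 pathway lists in the ipsilateral L5 (blue) and L6 (red) DRG, filled where the adjusted p was below 0.05, with the 4 peptide genes as diamonds in the bottom row. The granins lie left of 0 (Scg2 at -3.12 in L6), the regulators reach 3.53 (Atf3 in L6), and Vgf, at 1.48 and 1.54, lies well left of Gal, Npy and Vip.

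Injury-induced regulators and cytokine genes were the list with more rises than falls. In L5, 8 of 23 rose and 2 fell, with a median of 0.40, and in L6 7 of 24 rose and 1 fell, with a median of 0.36. Besides Atf3, Jun, the partner of ATF proteins in AP-1, rose by 1.65 (SE 0.17, adjusted p = 0.00212) in L5 and by 1.62 (SE 0.33, adjusted p = 0.0262) in L6. Socs3, a target of the gp130 cytokine pathway that LIF and CNTF use, rose by 1.30 in L5 (adjusted p = 0.0322), and Egr1 by 1.20 (adjusted p = 0.00596). Crem, a CRE-binding factor, rose by 1.53 in L6 (SE 0.29, adjusted p = 0.0184), and Sox11 by 1.32 (adjusted p = 0.0151). The receptor genes Ntrk2 and Ret fell in L5, by 0.80 and by 0.88. In the nerve Atf3, Jun, Crem and Stat3 rose and Cntf, a Schwann cell cytokine, fell by 1.24 (adjusted p = 0.0232). The L5 rises numbered 4 without the SNL or the SNL GPN pool. In L6 Atf3 alone of the list passed without the SNL pool or under the deposited scaling.

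The likeness of patterns was described over the 28 DRG pools by Pearson's r of log2 levels, which share arrays, sides and treatments. For Vip the 5 closest of 9374 genes were Atf3 (0.98), Cd74 (0.97), Npy (0.96), Gal (0.96) and Gadd45a (0.96). For Npy they were Atf3, Gal, Vip, Cd74 and RT1-Bb, and for Gal they were Atf3, Cd74, Npy, Gadd45a and Lyz2, with Vip in the sixth place. Cd74, RT1-Bb and Lyz2 are genes of antigen presentation and of macrophages. Vgf was apart, with Gap43 (0.93), a growth cone protein, Clic1, Rhoc, Tagln2 and Rpl7 closest, and it ranked 85 for Vip, 86 for Npy and 107 for Gal.

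Over all 52 pools, Npy and Vip were each other's closest gene of 9814 (r = 0.87), followed by Tgm1 for both. Gal was closest to Reg3b (0.81), with Npy at 0.79. Vgf was closest to the neuronal genes Nsg1 (0.92), Gap43 (0.90) and Syt4 (0.89), and had Gal at rank 474 and Vip at rank 690.

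Markers of other cells moved in the same ganglia. The summed signal of 9 macrophage markers was 3908 and 4209 in the ligated L5 pools against 843 to 1440 in the unligated ones, and 3454 and 4648 against 676 to 1034 in L6. Among these markers, Ptprc and Cd14 overlapped between the groups at both levels. The sympathetic neuron markers, of which 7 of 8 were on the arrays, summed to 197 and 219 in the ligated L5 pools against 242 to 309.9, and to 113 and 151 against 262 to 282 in L6. Their members went different ways. Chrna3, a nicotinic receptor subunit gene, had 39.3 and 42.3 in the ligated L5 pools against 130.1 to 163, while Slc18a2, the vesicular monoamine transporter gene, had 54.5 in both against 19.3 to 22.2. In L6 Slc18a2 read 28.6 and 29.4 against 11.9 to 25.6. Th and Slc6a2 were above the filter in some pools of each level and overlapped between the groups in L5 and L6, and Dbh, Phox2a and Ddc were below it in every ipsilateral DRG pool. The part of sympathetic neurons or fibres in the Npy change was not tested. Fibroblast markers summed to 8713 and 12507 in the ligated L5 pools against 5669 to 6882. Skeletal muscle markers, 8 of 9 on the arrays, varied between single pools, with 2844 and 8310 in the ligated L5 pools against 880 to 4236, and 607 and 420.5 in the ligated L6 pools against 350.0 to 5358. The part of macrophages, fibroblasts and muscle in the peptide changes was not tested.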

How the data were processed

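RNA pools were hybridised to Affymetrix rat U34 A, B and C arrays. The deposited values are linear intensity per probe set, made with MAS5 per the submitters' processing notes. The sources used here name neither its version nor a scaling target. The number of arrays limits the precision. Arrays of a set were quantile normalized within a compartment (over all 52 pools for tissue levels, which used the ipsilateral side and brain, and over both compartments together for differences, which were taken per treatment), because array medians ranged from 13 to 62.2 on A, 8.1 to 47.2 on B and 14.5 to 53.3 on C. Values became log2 of intensity plus the 20th percentile of the set (5.8 for A, 4.5 for B, 6.2 for C), and folds refer to that scale. Probe sets above the 40th percentile of their array in at least 2 pools of a comparison were tested, without 177 controls. Of 26379 probe sets 18178 had 1 symbol, 391 several and 7633 none, with symbols from GEO's platform annotation updated through RefSeq (GRCr8, names only).

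Testing was by lmFit and eBayes (trend) of limma 3.58.1 in R 4.3.3, two-sided, adjusted by Benjamini-Hochberg over all kept probe sets, threshold 0.05, and was checked on simulated data. GPN was tested with ligation as a covariate. Whether tissues of a treatment came from the same rats is not given. The members and lists were chosen with earlier results of these data known. Named were the members, up to 4 passing genes per list in L5 and L6 and 2 elsewhere, and the 5 most correlated genes; Pcsk1n, Furin, Cpe, Pam, the receptors, Adcyap1, Cck, Cartpt, Ntrk2, Ret, Atf3 in L4, and Crem, Stat3 and Cntf in the nerve were added after their values were seen. Alternatives covered scaling, pseudocount, filter, spread, probe set, treatment as a block, and left-out pools.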

Additional observations from a re-analysis of the deposited data

Results flagged for a closer look

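In 5 cases every ligated pool was above the unligated pools in the ipsilateral DRG and below them in the contralateral DRG. The contralateral L5 and L6 comparisons hold 2 against 2 pools, so such a split arises easily, and its share over all probe sets is not given. The difference of the log2 change between the sides was 4.70 for Vip, 4.70 for Npy and 1.55 for Vgf in L5, and 4.93 for Npy and 1.64 for Vgf in L6. The difference was not tested, since the ipsilateral L5 and L6 rises chose the genes and fix its sign. No contralateral change passed the test, and 3 of the 5 contralateral directions turned with a setting or the other probe set. Vgf turned to 0.072 in L5 with the deposited and to 0.042 in L6 with median scaling, and Vip, below the filter on that side, was higher in the ligated L5 pools on array A.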

How the results depend on the processing

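No paired analysis was possible because each treatment has 1 pool per compartment and the pools carry no replicate numbers; this concerns replicates within a comparison, while differences between compartments were taken per treatment and tissues were also fitted with treatment as a block. Values are log2 changes, and where a cause is not named the cause was not tested. Over the alternatives to the ligation results, 282 of 314 kept their direction and their side of the threshold (or moved by less than the spread), as did 110 of 150 for differences of the ligation change, 52 of 68 for GPN and 168 of 192 for tissues. With the deposited scaling the median of all probe sets itself shifted by 0.49 in L4, -0.24 in L5, -0.28 in L6 and 0.33 in ipsilateral nerve, and by -0.75 for nerve and -0.28 for brain against L5 DRG.

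In the L4 DRG, Vip, which entered the test through its ligated pools only, passed with the deposited scaling (3.09) and with 1 spread over compartments (2.36), Gal passed with the deposited scaling (1.86), and Npy did not pass without a filter (2.70, more probe sets tested). In L5, Vip was 5.08 with a pseudocount of 1 and 3.40 on array A, and Vgf was 1.32 with the deposited and 1.26 with median scaling. In L6, Vip was 6.43 with a pseudocount of 1 and 4.02 on array A, and the deposited scaling gave 4.61 for Npy and 1.09 for Vgf.

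Directions turned with the deposited scaling, without a test passed, for contralateral Gal (0.063 in L4, 0.14 in L5, -0.55 in L6), contralateral Vgf (0.13 in L4, 0.072 in L5), contralateral cord Npy (-0.68) and Vgf (-0.57), the L6 minus L5 difference of Vgf (-0.22) and the cord side difference of Npy (0.78). They also turned for GPN in L6 (Vip 0.21, Npy 0.71, Gal 0.42, Vgf 0.64) and L5 minus L4 DRG (Npy 0.021, Gal 0.091, Vgf 0.20). Median scaling turned contralateral L6 Vgf (0.042), and a pseudocount of 1 turned Vip in nerve minus L5 DRG (0.015). Among tissues, the deposited scaling gave 0.66 for Vgf in brain minus L5 DRG, -1.72 for Npy in nerve minus L5 DRG, which passed, and 1.11 for Vip in brain minus cord, which a pseudocount of 1 put at 1.83, neither passing. With treatment as a block Vgf in brain minus cord passed (0.70).

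Leaving out 1 pool at a time gave ranges of 2.37 to 3.03 for Npy in L4, 3.96 to 4.87 for Npy and 3.15 to 3.98 for Gal in L5, and 5.13 to 5.57 for Vip and 4.33 to 5.02 for Gal in L6. The ranges were -0.72 to 0.14 for Gal and -0.24 to 0.029 for Vgf in contralateral L4, -0.13 to 0.26 for Npy in ipsilateral cord and -0.067 to 0.43 in brain. They were -0.089 to 0.34 for the L6 minus L5 difference of Vgf, and -0.24 to 0.17 for Npy and -0.24 to 0.44 for Vgf between cord sides. For GPN they were -0.39 to 0.52 (Vip), -1.18 to 0.23 (Npy), -1.13 to 0.11 (Gal) and -0.23 to 0.070 (Vgf) in L5, and -0.24 to 0.22 (Npy), -0.91 to 0.16 (Gal) and -0.58 to 0.38 (Vgf) in L6. Against L5 DRG they were -0.11 to 0.73 (Vip) and 0.029 to 1.20 (Npy) for cord, 1.32 to 2.31 (Vip), 0.48 to 1.51 (Npy), -2.42 to -1.38 (Gal) and 0.95 to 1.18 (Vgf) for brain, and -0.35 to 0.46 (Vip) for nerve. For brain minus cord they were 1.42 to 1.58 (Vip) and 0.57 to 0.82 (Vgf), for L5 minus L4 -0.49 to 0.028 (Npy) and -0.048 to 0.025 (Vgf), and for L6 minus L4 -0.40 to 0.11 (Vip) and -0.38 to 0.031 (Npy).

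Counts of probe sets that passed ranged over the alternatives from 0 to 2926 in L4 (7 in the report), 774 to 3078 in L5 (2612), 86 to 2704 in L6 (1442) and 0 to 2269 in nerve (821), with the lowest in L5 and nerve without the SNL pool. They ranged from 0 to 112 in contralateral L5 (1), 0 to 1227 in contralateral L6 (12), 0 to 26 for L6 minus L5 (2), 0 to 57 for GPN in brain (0) and 795 to 3139 for brain minus cord (2978). Vip outside ligated DRG and brain, and Gal in nerve and brain, lay near background, so changes there were not measurable.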
